A study of Mus musculus with 17 samples.

Results

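DNA methylation in the blood of old mice was compared between caloric restriction (CR) and ad libitum feeding (AL). The CR-old group held 5 mice of 32 to 38 months (CR-old 02 and 06, females; CR-old 19, 20 and 22, males) and the AL-old group held 7 mice of 29 to 33 months (AL-old 08, 09, 10, 13 and 14, females; AL-old 25 and 27, males). All were C57BL/6 animals without a labelled genetic change, and per the study's methods they came from a rodent colony kept for caloric restriction work. For reference, 5 AL-young mice of 4 months were used to describe how each site looked early in life, and they did not enter the main test of diet. Methylation was measured by DREAM, in which the enzyme SmaI cuts CCCGGG where its central CpG is unmethylated and XmaI then cuts the methylated copies, so that the read ends tell the 2 states apart. Autosomal CCCGGG sites were compared if 9 or more of the 12 old mice had 100 reads or more there, and 15632 of 164896 sites (9.48%) met this rule. Each mouse was 1 sample of whole blood. Blood mixes several cell types, so a different share of a cell type and a different methylation level inside cells cannot be told apart in these data.

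Cytosine methylation at CpG dinucleotides is copied to the daughter strand at cell division, and the copy is imperfect over a lifetime. CpG islands (CGIs), the CpG-dense stretches that cover many gene starts, are mostly kept free of methylation in blood, whereas CpG-poor DNA in gene bodies and between genes is mostly methylated. With age, some islands gain methylation and some CpG-poor sites lose it. Caloric restriction, a lower food intake without malnutrition, lengthens life in most mouse strains and lowers signalling through insulin, IGF and mTOR.

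Of the 112 sites lower in CR-old mice, 64.3% lay in CpG islands, near the 57.2% of all tested sites, and of the 115 higher sites 79.1% lay outside islands and their shores, against 30.5% of all tested sites. The sequences around a few of them are printed to show both kinds of DNA. Each sequence below is the plus strand of NCBIM37 (mm9), 5′ to 3′, with the tested CCCGGG in capitals, and coordinates are those of the printed stretch. The first set was lower in CR-old mice and lies in islands: an intron of Ugt8a near its start, an intergenic island 9462 bp from the start of Sp8, and an intron of Rictor with 2 tested sites.
Ugt8a (chr3:125640832-125640897): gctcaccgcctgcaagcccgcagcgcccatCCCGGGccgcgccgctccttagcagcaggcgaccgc
near Sp8 (chr12:120075307-120075372): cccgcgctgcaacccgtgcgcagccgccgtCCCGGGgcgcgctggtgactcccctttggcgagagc
Rictor (chr15:6659190-6659456): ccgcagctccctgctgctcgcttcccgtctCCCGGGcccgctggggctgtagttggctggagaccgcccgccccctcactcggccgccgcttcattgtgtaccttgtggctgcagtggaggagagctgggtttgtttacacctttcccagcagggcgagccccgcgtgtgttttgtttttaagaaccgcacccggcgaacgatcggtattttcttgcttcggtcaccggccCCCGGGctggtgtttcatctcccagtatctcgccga
These stretches hold 9, 10 and 23 CpGs.

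The second set was also lower in CR-old mice but lies in introns outside islands, in DNA that was largely methylated in young mice.
Gfod1 (chr13:43347529-43347594): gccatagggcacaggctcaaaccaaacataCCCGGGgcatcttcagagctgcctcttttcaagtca
Foxo3 (chr10:41971277-41971342): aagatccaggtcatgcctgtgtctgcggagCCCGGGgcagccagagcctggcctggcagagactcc
They hold 1 and 2 CpGs, the one CpG of the Gfod1 stretch being the tested one.

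The third set was higher in CR-old mice: introns of Sik1 and Cyba with a pair of tested sites each (1 of the Sik1 pair falls in a coding exon of the same stretch), an intron of Ppara, and an intergenic site 79329 bp from the start of Usp12.
Sik1 (chr17:31983924-31984122): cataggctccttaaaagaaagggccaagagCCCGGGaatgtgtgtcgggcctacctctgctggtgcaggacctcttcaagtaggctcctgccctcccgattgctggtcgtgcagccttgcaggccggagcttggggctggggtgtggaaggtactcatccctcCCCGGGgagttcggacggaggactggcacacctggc
Cyba (chr8:124951660-124951946): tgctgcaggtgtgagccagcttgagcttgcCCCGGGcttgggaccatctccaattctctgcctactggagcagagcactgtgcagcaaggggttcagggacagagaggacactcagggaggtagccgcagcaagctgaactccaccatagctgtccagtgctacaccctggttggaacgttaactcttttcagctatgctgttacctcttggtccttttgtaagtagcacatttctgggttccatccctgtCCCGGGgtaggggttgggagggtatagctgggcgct
Ppara (chr15:85619109-85619174): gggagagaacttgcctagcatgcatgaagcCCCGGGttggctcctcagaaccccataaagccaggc
near Usp12 (chr5:147490662-147490727): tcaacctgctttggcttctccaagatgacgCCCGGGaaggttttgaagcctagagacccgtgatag
Over 199 bases Sik1 holds 8 CpGs, and over 287 bases Cyba holds 5.

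Library depth ranged from 6427598 to 14953207 reads in AL-old and from 7371798 to 14854603 reads in CR-old mice, and the median kept site had 276 to 648 reads per mouse. At 100 reads a level of 50% has a 95% Wilson interval of 40.4 to 59.6%, and 0 methylated reads allow up to 3%. These limits cover counting error only. The authors' adjusted methylation multiplies the methylation odds of a mouse by 1 factor taken from spiked standards. This correction factor was at least 1.3 in 5 of 7 AL-old mice (1.40 to 3.96, all 5 AL-old females) and in 1 of 5 CR-old mice (1.80 in CR-old 06, a female). The others lay between 0.872 and 1.09. Diet, sex, age and correction therefore overlap heavily: within low-correction mice 2 AL-old males face 4 CR-old mice, and their parts in any diet difference cannot be told apart. Both raw and adjusted methylation were analysed, and sites are described below if they were called on both.

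On read counts, edgeR's quasi-likelihood test called 112 sites lower (0.716%) and 137 higher (0.876%) in CR-old than AL-old mice, at an adjusted p under 0.05 with group means at least 2 points apart. With the correction factor as an offset, the same test called 738 lower (4.72%) and 117 higher (0.748%). Over all sites the median CR-old minus AL-old difference was -0.012 points raw and -0.236 points adjusted, and the median log2 odds ratio moved from -0.06 to -0.47, so the adjusted scale shifted the whole distribution down. Calls shared by both scales numbered 112 lower (0.716%) in 69 genes and 115 higher (0.736%) in 63 genes. Over all tested sites, every CR-old mouse lay below every AL-old mouse at 124 sites in raw (0.793%) and 344 in adjusted methylation (2.2%), and above at 44 (0.281%) and 45 (0.288%). Among the 112 lower calls the groups were apart at 21 sites raw, 21 adjusted and 9 on both. Of the 115 higher calls, 6 were apart raw, 10 adjusted and 6 on both. Most called sites therefore had overlapping groups.

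These counts rested on which mice and covariates entered the fit. With the correction class (high or low) as covariate, edgeR called 0 sites on read counts in either direction (1740 sites at an unadjusted p under 0.05) and 23 lower and 2 higher on the adjusted scale. With sex as a covariate, 2 lower and 7 higher sites remained called on both scales. The low-correction mice alone gave 0 calls with edgeR on either scale (2058 sites at an unadjusted p under 0.05 raw, 1698 adjusted). Limma on log2 odds called 0 sites raw (1962 at an unadjusted p under 0.05), and 335 lower and 48 higher adjusted. Single mice mattered as well. Without AL-old 25 the calls on both scales rose to 314 lower and 222 higher, and without AL-old 08 to 203 lower. They dropped without AL-old 09 (54 lower, 76 higher), AL-old 13 (50 and 70), AL-old 14 (60 lower), AL-old 27 (69 lower), CR-old 02 (42 and 64), CR-old 19 (15 and 54), CR-old 20 (6 and 43) and CR-old 22 (4 and 34). The plot of counts by setting shows this range.

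**Figure D1:**
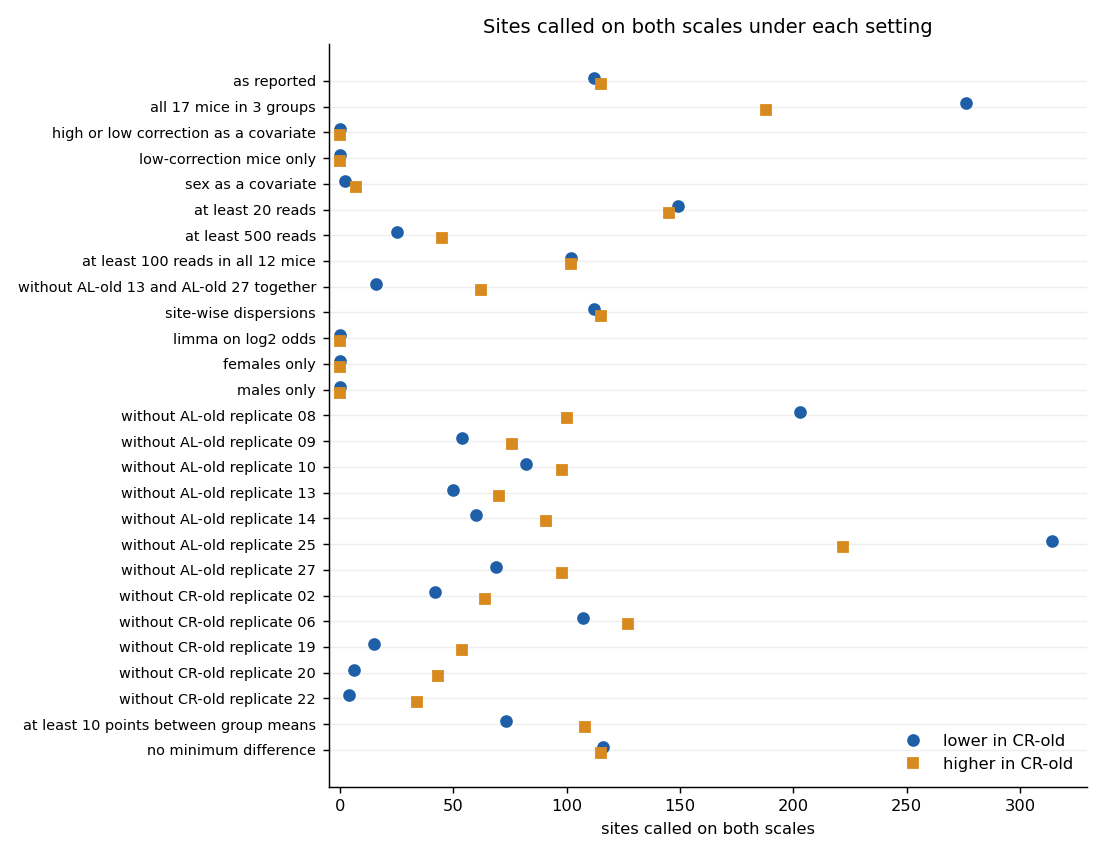
Number of sites (x axis) called by edgeR on both scales as lower (blue circles) or higher (orange squares) in CR-old mice under each setting (y axis). As reported the counts were 112 and 115; with the correction covariate, low-correction mice, limma, females only or males only both were 0, and they reached 314 and 222 without AL-old 25.

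Most lower sites were nearly unmethylated in young mice. Of 112, 85 (75.9%) had under 5% methylation in AL-young mice, against 63.4% of all tested sites. Within this class of 9916 sites 0.857% were called lower, against 0.716% of all tested sites. At the 85 sites the median group mean was 0.556% in AL-young, 13.9% in AL-old and 1.06% in CR-old mice. The median over these sites in single AL-old mice ran from 1.86% (AL-old 25) through 11.45% (AL-old 09) to 35.7% (AL-old 27), and that of CR-old mice was 1.60, 1.19, 0.72, 0.78 and 0.59% in the order CR-old 02, 06, 19, 20 and 22, which is kept below. AL-old 25 and 08 sat closest to the CR-old mice, and no CR-old median reached an AL-old one. The nearest were CR-old 02 at 1.60% and AL-old 25 at 1.86%. These sites were called with the same mice, so separate medians were favoured in advance. Islands held 72 of the 112 (64.3%, against 57.2% of all tested sites) and promoters held 61 (54.5%, against 53.6%). The median lower site had 18 CpGs in the 100 bp on either side and lay 486 bp from the nearest coding start, against 14 CpGs and 515 bp over all sites. Island sites under 5% in young mice held 69 of the lower calls, out of 8178 such sites (0.844%). Outside islands the same young class gave 7 lower and 3 higher of 464.

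Higher sites lay mainly outside islands and in gene bodies. Of 115, 91 (79.1%) were outside islands and shores, against 30.5% of all tested sites, and 69 (60%) were in gene bodies, against 29.9%. Their median had 5 CpGs in the same window and lay 6807 bp from a coding start. At 48 of them AL-young mice had 50 to 90% methylation, with a median group mean of 75.3% in AL-young, 21.4% in AL-old and 64.7% in CR-old mice. Another 36 were over 90% in young mice (95.5, 41.5 and 86.3%), and 26 were between 5 and 50% (28.3, 7.65 and 38.9%). Relative to the sites available, calls were most frequent among sites of 5 to 90% in young mice, with 2.52% of those at 5 to 50% and 3.31% of those at 50 to 90% higher in CR-old mice. The 3′ untranslated regions held 7 of the higher calls among 218 sites (3.21%).

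**Figure D2:**
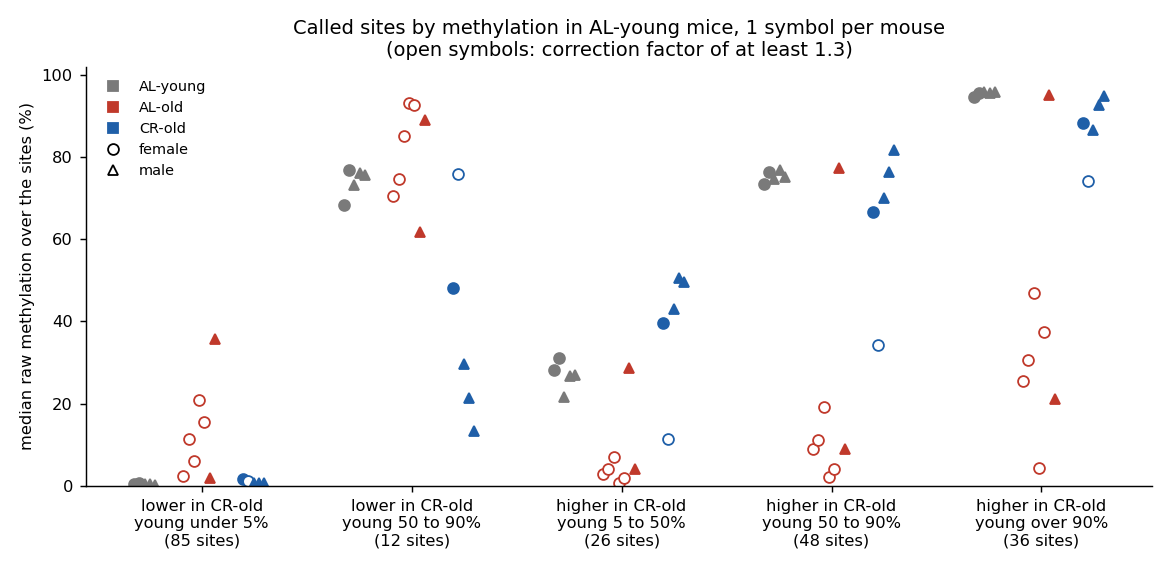
Median raw methylation (y axis, percent) of each mouse over the sites called on both scales, grouped by direction and by the mean of AL-young mice (x axis); colours give the group, circles females, triangles males, and open symbols a correction factor of at least 1.3. AL-old 25 lies at or near the AL-young level in all groups, and CR-old 06 lies nearest to the AL-old mice at the 12 lower sites of 50 to 90% and at all 3 groups of higher sites.

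One AL-old and one CR-old mouse stood apart from their groups at these sites. AL-old 25 had a median of 78.6% over the higher sites, against 2.83 to 22.6% in the other AL-old mice, and it fell inside the range of the CR-old mice at 79 of 109 higher and 65 of 109 lower sites with enough reads. Leaving it aside, the other AL-old mice did not overlap CR-old mice at 84 higher and 60 lower sites. These sites were called with the same mice, and the count was not made over all tested sites. It describes the called sites only. CR-old 06, the one CR-old mouse with a high correction, was the lowest CR-old mouse at 106 of the 113 higher sites covered in all 5, and CR-old 22 was the highest at 84. These values are in raw methylation, and the part of the correction class in them was not tested.

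A smaller group of lower sites had a different pattern. At 12 sites outside islands AL-young mice had 50 to 90% methylation, and CR-old mice lay below both other groups: the median group mean was 73.6% in AL-young, 79.4% in AL-old and 36.8% in CR-old mice. The CR-old medians over these sites were 48.3, 75.8, 29.7, 21.4 and 13.4%, whereas AL-old mice had 61.8% (AL-old 25) to 93.2% (AL-old 13) with a median mouse at 85.2%. All 3 CR-old males were below every AL-young mouse at 12 of 12 sites and below every AL-old mouse at 11, and CR-old 06 was the highest CR-old mouse at 12 of 12. A mirror of this appeared at the 26 higher sites with 5 to 50% in young mice. There the CR-old medians were 39.6, 11.3, 43.1, 50.5 and 49.5%, and the 3 males exceeded every AL-young mouse at 19 sites and every AL-old mouse at 16. Both sets of sites were called between CR-old and AL-old with these same mice, so positions beyond the AL-old mice were favoured in advance. The counts for males were not made over all sites of these young levels and describe the called sites only. The CR-old males were also older (34 to 38 months) than all AL-old mice.

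Among the named lower sites in islands, the largest with no overlap in raw methylation was in an intron of Ugt8a, which makes the galactosylceramide of myelin (chromosome 3, 125640862 to 125640867, in a CGI from 125640744 to 125642027, 603 bp from its start; 135 to 445 reads per mouse). Raw methylation was 9.46, 9.98, 7.73, 6.31 and 7.44% in the CR-old mice. The AL-old mice ran from 12.9% through a median of 49.9% to 72.6%, and AL-young mice from 3.49 to 7.53%. The group means were 8.18 ± 1.51% (SD, n = 5) and 44.2 ± 22.7% (SD, n = 7), and edgeR gave a log2 odds ratio of -3.13 with an SE of 0.82 (adjusted p = 0.0182). In adjusted methylation the groups overlapped. A second site 110 bp away had raw means of 5.71% in CR-old and 26.1% in AL-old mice and was not called (edgeR adjusted p = 0.105).

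Plcb4, a phospholipase C of G protein signalling, had its site in an exon of the promoter CGI (chromosome 2, 135484955 to 135484960). The CR-old values were 2.50, 3.89, 1.18, 2.43 and 2.86%, below all AL-old values, which ran from 4.13% through 16.8% to 87.5%. AL-old 08, 13 and 25 were each within 0.5 points of the highest CR-old mouse, so that the mean difference of -26.6 points (edgeR adjusted p = 0.0328) came from the other AL-old mice. The island near Sp8, a zinc finger factor of limb and brain development, had 4.08, 2.73, 1.25, 1.86 and 2.51% in CR-old mice at its site (chromosome 12, 120075337 to 120075342). AL-old mice there had 3.54 to 66.8% with a median of 19.3%, and AL-old 25 was inside the CR-old range (difference -26.4 points, edgeR adjusted p = 0.0108).

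Oxt encodes the oxytocin precursor, and its site was in a coding exon within a CGI (chromosome 2, 130402524 to 130402529). CR-old mice had 3.04, 5.19, 3.24, 1.52 and 0.16%, and AL-old mice 3.54 to 69.3% with a median of 7.52%. Only AL-old 13, 14 and 27 were above 40%, and the groups overlapped (edgeR adjusted p = 0.0391). Gpr125, an adhesion-type receptor, was read most deeply of these (653 to 1732 reads; chromosome 5, 50449897 to 50449902, a coding exon inside the promoter CGI). Its CR-old values were 3.83, 3.89, 2.48, 2.17 and 2.09%, against 3.08 to 63.4% in AL-old mice (edgeR adjusted p = 0.0289), and of 3 neighbouring sites within 500 bp 1 was also called lower. The promoter CGI of Chsy3, a chondroitin sulfate synthase, had 2.76, 6.68, 2.94, 3.67 and 4.88% in CR-old mice and 5.89 to 67.9% in AL-old mice (edgeR adjusted p = 0.0139). An island 123273 bp from Kcnh8, a potassium channel gene, had group means of 2.68 and 24.7% (edgeR adjusted p = 0.0402).

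Trhde, an enzyme that degrades thyrotropin-releasing hormone, Fam189a1 and Rnf217, a ubiquitin ligase, also ranked among the 10 largest lower sites in islands and promoters. The CR-old values at Trhde were 13.7, 20.7, 8.09, 10.9 and 14.6%, against 18.4 to 94.3% in AL-old mice, where AL-old 25 was below CR-old 06. At Rnf217 the CR-old range was 1.85 to 6.71% and the AL-old range 2.17 to 83.3%. Tested sites 259 bp from the Trhde site and 8 bp from the Rnf217 site were called lower as well, with raw differences of -31.2 and -23.4 points. At Fam189a1 the only neighbour had a difference of -6.52 points and was not called (edgeR adjusted p = 0.212).

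The 6 largest lower sites elsewhere were in gene bodies outside islands, and they showed the graded order of CR-old mice described above. Gfod1 had raw methylation of 48.8, 56.7, 27.4, 18.0 and 9.24% in CR-old mice (intron, chromosome 13, 43347559 to 43347564; 117 to 423 reads), below every AL-old mouse (63.9 to 89.6%). Sdk2, a synaptic adhesion molecule of the immunoglobulin family, had 39.4, 43.2, 22.5, 17.1 and 14.1% (coding exon, chromosome 11, 113667703 to 113667708), again below every AL-old mouse (52.2 to 87.2%). Both genes had a tested neighbour within 500 bp that was lower in the same direction without being called, by 17.9 points at Gfod1 and 31.3 points at Sdk2.

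Foxo3, a forkhead transcription factor that insulin signalling holds out of the nucleus, carried its site in an intron 25238 bp from its start (chromosome 10, 41971307 to 41971312; 102 to 299 reads). CR-old mice had 45.7, 78.2, 35.1, 21.9 and 10.5%. AL-old mice had 37.6 to 98.3% with a median of 86.1%, and AL-young mice 49.3 to 72.4%. AL-old 25 and CR-old 06 overlapped the other group, and the 3 CR-old males were below every other mouse in all 3 groups. The means were 38.2 ± 26.0% (SD, n = 5) and 79.96 ± 21.4% (SD, n = 7), and edgeR gave -3.63 as the log2 odds ratio with an SE of 0.90 (adjusted p = 0.0106). A site 341 bp away differed by -18.8 points without a call (edgeR adjusted p = 0.308), and the 4 tested island sites of Foxo3, all within 1043 bp of its start, had group means of at most 0.36%.

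Srp68, a subunit of the signal recognition particle that brings nascent proteins to the endoplasmic reticulum, had 55, 82.6, 31.1, 24.4 and 15.6% in CR-old mice (intron, chromosome 11, 116121560 to 116121565). Its AL-old mice had 82.7% or more except AL-old 25 at 60.1% (log2 odds ratio -4.43, SE 0.90, edgeR adjusted p = 0.000771). A neighbour 311 bp away was called in the same direction (-33.2 points). Slc41a3, a magnesium transporter, had CR-old values of 47.7, 66.0, 28.3, 16.5 and 10.75% against 57.0 to 87.5% in AL-old mice. Nos1ap, an adaptor of neuronal nitric oxide synthase, had 55.6, 80.5, 38.3, 21.5 and 16.9% against 64.6 to 96.7%. CR-old 06 lay inside the AL-old range at Foxo3, Srp68, Slc41a3 and Nos1ap.

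Sik1, a salt-inducible kinase that restrains cAMP-responsive transcription, was the largest higher site with full coverage (intron, chromosome 17, 31983954 to 31983959; 547 to 2433 reads). CR-old mice had 88.8, 66.6, 87.2, 92.9 and 96.5%, and AL-old mice 1.54 to 25.0% apart from AL-old 25 at 98.2%. AL-young mice had 95.4 to 98.3%. The means were 86.4 ± 11.7% (SD, n = 5) and 25.0 ± 33.2% (SD, n = 7), and edgeR's log2 odds ratio was 5.59 with an SE of 0.92 (adjusted p = 4.75e-06). The second site of the printed stretch differed by 60.9 points. The pair of tested sites in the Sik1 promoter island had group means under 0.2%, so within this gene the difference was in the methylated body.

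Only the site near Usp12, a deubiquitinase gene, had groups apart on both scales among the 8 largest higher sites (chromosome 5, 147490692 to 147490697). CR-old mice had 63.7, 41.0, 81.3, 85.1 and 94.2% and AL-old mice 5.28 to 32.6%, with AL-young mice at 30.0 to 47.8%, overlapping both. By edgeR the log2 odds ratio was 4.19 with an SE of 0.86 (adjusted p = 0.000771). A site 285 bp away was also called higher (51.5 points).

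Cyba encodes p22phox, a subunit of the NADPH oxidase with which phagocytes make superoxide, and both its tested sites were called higher. At the first (intron, chromosome 8, 124951690 to 124951695) CR-old mice had 68.6, 59.75, 73.7, 83.5 and 92.0% and AL-old mice 3.41 to 30.8%, except AL-old 25 at 78.8% (edgeR adjusted p = 0.000771). The intergenic site 5808 bp from Tnfrsf13c, which encodes a receptor for the B cell survival factor BAFF, had CR-old values of 79.7, 36.5, 81.8, 89.5 and 96.3% and AL-old values of 1.71 to 19.2%, except AL-old 25 at 87.7% (chromosome 15, 82060595 to 82060600). Zbtb32, a zinc finger repressor of lymphocytes, had 78.0, 22.8, 72.4, 79.6 and 79.9% against 0.72 to 11.5% and 77.1% in AL-old 25. The same order held at Tmem222, Galm (galactose mutarotase) and Dnahc1 (an axonemal dynein heavy chain), where AL-old 25 had 92.9, 79.0 and 87.0% and the other AL-old mice did not exceed 40.9%. At all 8 of these sites except the one near Usp12, AL-old 25 was the mouse that closed the gap between the groups.

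**Figure D3:**
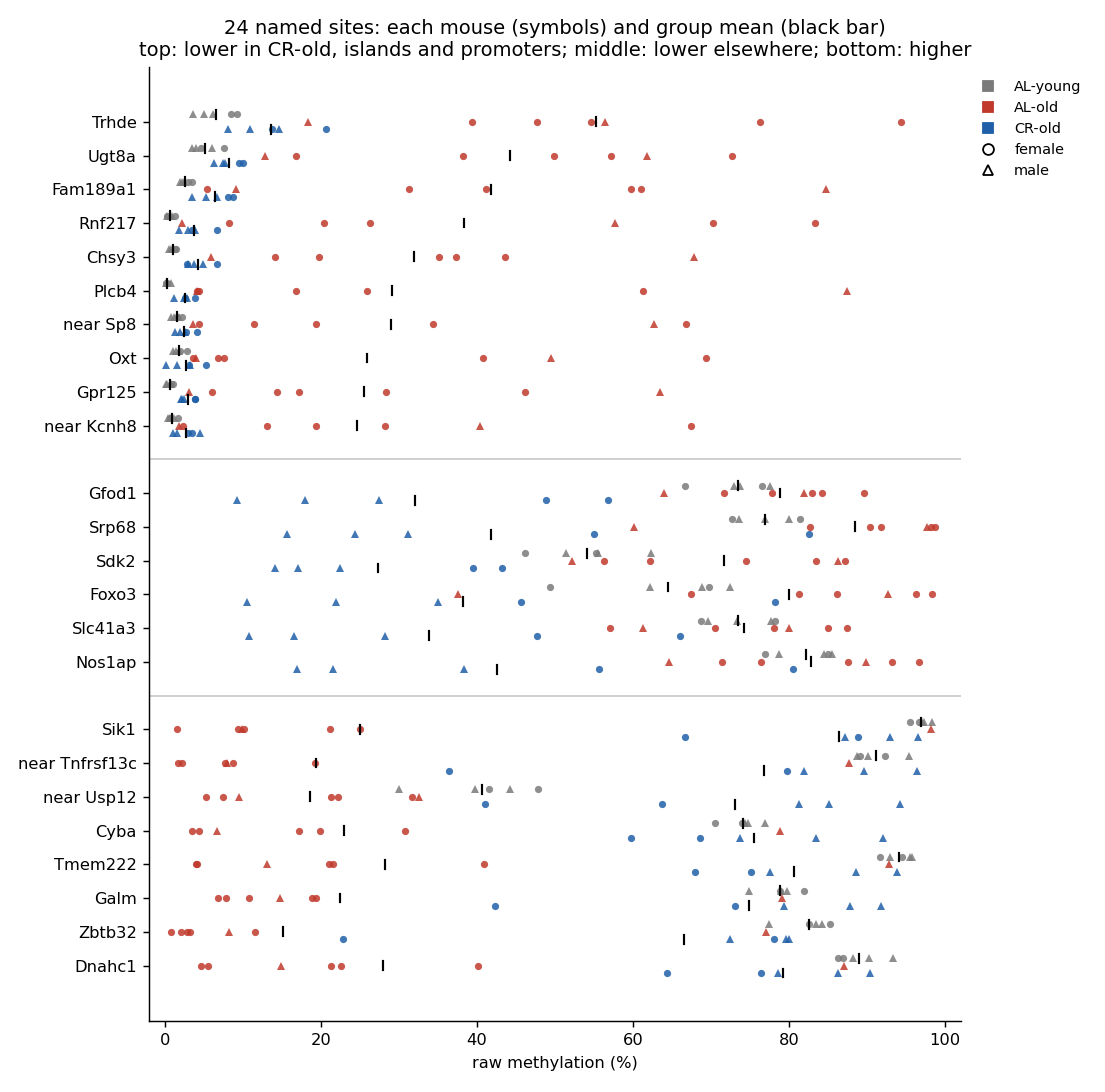
Raw methylation (x axis, percent) of each mouse at the 24 sites with the largest differences, in 3 blocks: lower in CR-old within islands and promoters, lower elsewhere, and higher; grey is AL-young, red AL-old, blue CR-old, circles are females, triangles males, and black bars group means. In the top block CR-old mice lie next to AL-young mice, in the middle block the CR-old males lie left of both other groups, and in the bottom block 1 red triangle, AL-old 25, lies with the CR-old mice except near Usp12.

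Several genes had more than 1 called site. All 4 tested sites of Pik3r2, the p85-beta regulatory subunit of phosphoinositide 3-kinase, were higher in CR-old mice, by 29.3 to 51.1 points (edgeR adjusted p from 5.15e-05 to 0.000771). At the site with the largest difference (coding exon, chromosome 8, 73292616 to 73292621) CR-old mice had 55.9, 19.75, 77.9, 83.9 and 97.2%, and AL-old mice 0.89 to 14.5% apart from AL-old 25 at 75.7%. Akna, which encodes an AT-hook protein, was higher at 3 of 4 sites, all in introns, 25436 to 26315 bp from the start of the Akna transcripts that hold them and 3285 to 4164 bp from the nearest start of another Akna transcript. The fourth site differed by 17.3 points without a call (edgeR adjusted p = 0.276). At 63038070 on chromosome 4 the CR-old mice had 94.7, 94.0, 95.4, 94.97 and 95.2%, against 30.1 to 97.4% in AL-old mice. They were further apart at the other two called sites, 61.0 to 83.4% at 63038177 and 68.35 to 93.8% at 63038949. Ndst1, an enzyme of heparan sulfate synthesis, was higher at all 3 of its sites, by 38.4 to 40.6 points.

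Satb1, a chromatin organiser needed for T cell development, was lower at 4 of 7 tested sites, all 4 in its promoter island (chromosome 17, 51952313 to 51952913), where CR-old means were 0.172 to 0.262% and AL-old means 3.12 to 4.00%. At the site starting at 51952495 CR-old mice had 0.11, 0.19, 0.44, 0.16 and 0.41% and AL-old mice 0.45 to 10.3% with a median of 2.20%. The groups were apart there on both scales, but the closest mice, CR-old 19 at 0.44% and AL-old 08 at 0.45%, differed by less than counting error. AL-old 27 was the highest mouse at all 4 sites, from 10.2 to 19.6%. Slc9a2, a sodium-hydrogen exchanger, was lower at 3 of 5 promoter island sites. The largest of these (coding exon, chromosome 1, 40738726 to 40738731) had 2.25, 1.48, 2.69, 1.28 and 1.12% in CR-old and 2.55 to 47.4% in AL-old mice (difference -20.2 points, edgeR adjusted p = 0.0148).

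Many called sites had tested or called neighbours. Of the 112 lower sites 106 had another tested site within 500 bp, and 50 had such a neighbour called the same way. Of the 115 higher sites 112 had a neighbour and 69 had one called the same way. The signs of the raw differences matched at all neighbours of 100 lower and 110 higher sites. Nearby sites share DNA molecules and cells and are not independent. The same counts were not made over all tested sites, so whether called sites cluster was not tested.

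**Figure D4:**
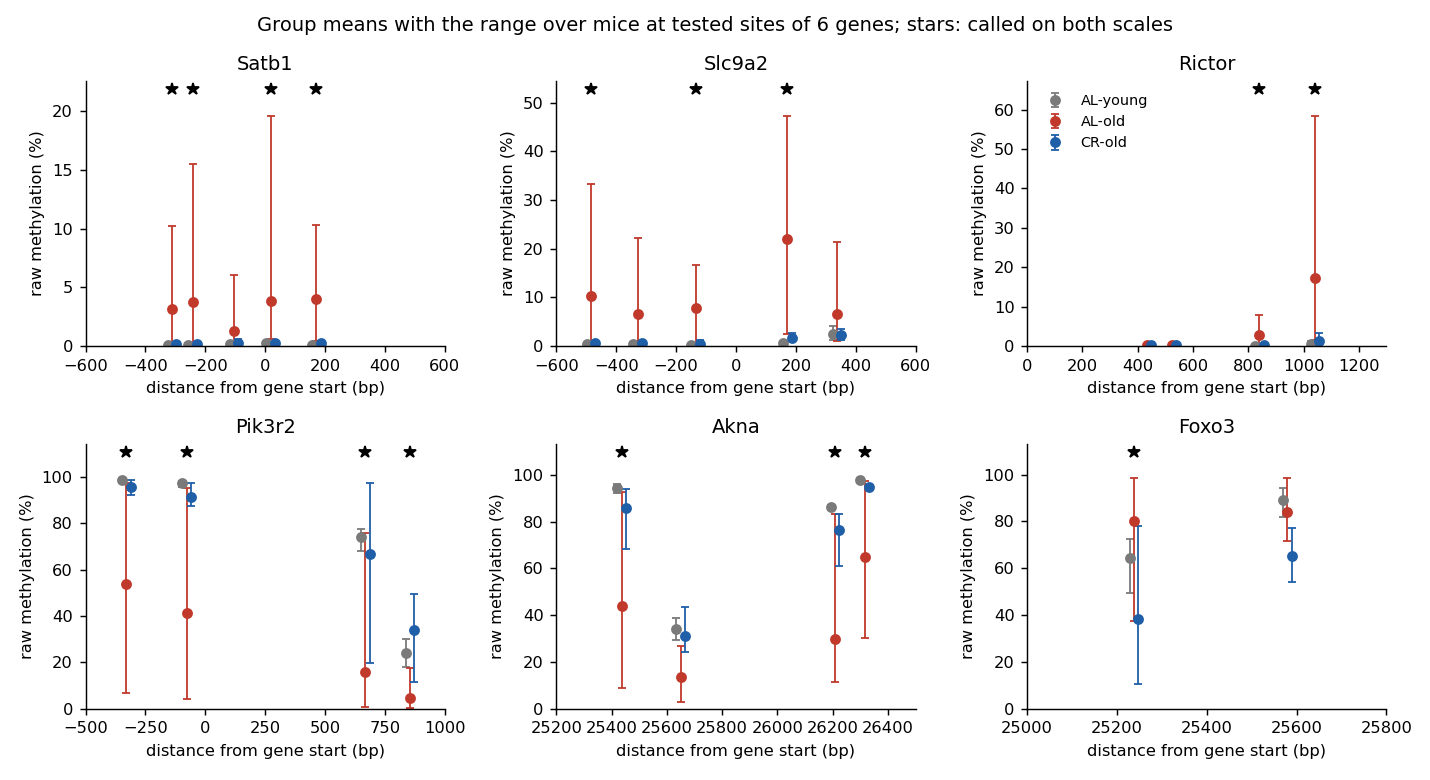
Raw methylation (y axis, percent) at tested sites of Satb1, Slc9a2, Rictor, Pik3r2, Akna and Foxo3 by distance in bp from the start of the gene's transcripts that hold the site or have it in their promoter (x axis); points are group means of AL-young (grey), AL-old (red) and CR-old (blue) mice, bars run from the lowest to the highest mouse, and stars mark sites called on both scales. In the upper row CR-old means stay under 3% at every site shown, and in Pik3r2 and Akna the CR-old means lie above the AL-old means at every site shown; the y axes differ and the island sites of Foxo3 and the body sites of Satb1 are outside the panels.

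Gene lists were then read against the share of all sites that was called on both scales. Over all 15632 sites, edgeR put 1012 lower and 926 higher on read counts at an unadjusted p under 0.05. Limma called 335 lower and 48 higher on the adjusted scale and 0 on read counts. Such counts for single lists below are read against these. Of 109 sites in genes of nutrient sensing, insulin, IGF and mTOR signalling, 3 were lower and 4 higher, against 0.716 and 0.736% of all sites, and the list's median difference was -0.00171 points raw (-0.012 over all sites). All 4 higher sites were those of Pik3r2. The lower sites were the Foxo3 intron and a pair of sites in Rictor, a defining subunit of mTOR complex 2 (intronic part of its CGI, 840 and 1041 bp from its start). At the larger of the Rictor pair (chromosome 15, 6659421 to 6659426; 258 to 897 reads) CR-old mice had 1.60, 0.43, 3.40, 0.44 and 0.33%, and AL-old mice 1.59, 4.06, 2.17, 21.0, 32.4, 1.75 and 58.5% in the order AL-old 08, 09, 10, 13, 14, 25 and 27. Only AL-old 13, 14 and 27 were clearly above the CR-old mice (edgeR adjusted p = 0.034). A pair of Rictor sites closer to the start had group means under 0.3%. The remaining 102 sites of this list were not called on both scales.

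Of 90 sites in genes of lipid and energy metabolism, 1 was lower and 5 were higher on read counts at an unadjusted p under 0.05, and limma called 0. On both scales edgeR called 0 lower and 1 higher (1.11%), against 0.716 and 0.736% of all sites. It was an intron of Ppara, the fatty acid-sensing nuclear receptor of fasting metabolism, 52581 bp from the start of the transcript that holds it and 16498 bp from the nearest Ppara start (chromosome 15, 85619139 to 85619144). CR-old mice had 69.6, 78.3, 60.3, 68.2 and 81.9%. AL-old mice had 2.18 to 78.6% with a median of 16.3%, and AL-old 25 was the mouse at 78.6% (difference 43.3 points, edgeR adjusted p = 0.0145). The 4 tested sites of the Ppara promoter islands had group means under 0.5%. Of 45 sites in circadian clock genes, 2 were lower (4.44%) and 0 higher (2 lower and 4 higher on read counts at an unadjusted p under 0.05). Limma called 1 lower and 0 higher on the adjusted scale. Both sites lower on both scales were in the promoter CGI of Npas2, a paralog of the clock factor CLOCK. CR-old mice had 0.70, 0.32, 0.33, 0.70 and 0.46% at the larger one, and AL-old mice 0.19 to 28.04% with a median of 6.45%.

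Lists of developmental regulators are read against 0.716% of all sites lower on both scales, 4.72% lower on the adjusted scale and a median raw difference of -0.012 points. Of 309 sites of homeobox, paired and T-box genes outside the Hox clusters, 4 were lower (1.29%) and 1 higher on both scales and 26 were lower on the adjusted scale (8.41%), with a median raw difference of -0.577 points. The 4 lower ones were the Satb1 promoter sites, and the higher one was in an intron of Prrx2, a limb and face mesenchyme factor (group means 61.1 and 25.9%). Among 141 sites of Fox, Sox and Gata factors 3 were lower on both scales (2.13%) and 18 on the adjusted scale (12.8%), with a median raw difference of -0.191 points. The 3 include the Foxo3 intron and a coding exon of Foxd1, a kidney stroma factor, with 2.36, 0.32, 1.19, 3.24 and 2.37% in CR-old and 2.76 to 44.5% in AL-old mice. Higher sites numbered 0 (4 higher on read counts at an unadjusted p under 0.05, 0 by limma). Hox genes gave 0 calls of 28 sites on both scales by edgeR, with 2 lower and 0 higher on read counts at an unadjusted p under 0.05 and 1 lower by limma on the adjusted scale. Basic helix-loop-helix factors had 1 lower of 46 sites (2.17%; 6.52% on the adjusted scale), Wnt genes 1 of 69 (1.45%; 10.1%) and the BMP, TGF-beta, FGF and hedgehog list 1 of 167 (0.599%; 5.39%). These single lower sites were in Bhlhe22 (a neuronal helix-loop-helix factor), Axin2 (a feedback inhibitor of Wnt signalling) and Inhbb (the beta-B subunit of activin and inhibin), with CR-old means of 0.776, 0.566 and 0.620% and AL-old means of 10.4, 7.70 and 8.83%. At Inhbb the groups were apart on both scales, with CR-old mice at most 0.92% and AL-old mice at least 1.22%.

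Of 192 sites in genes of axon guidance and synapse adhesion, 13 were lower and 14 higher on read counts at an unadjusted p under 0.05. Limma called 6 lower and 0 higher on the adjusted scale. On both scales edgeR called 4 lower (2.08%) and 0 higher, against 0.716 and 0.736% of all sites. Besides Sdk2 they include Slitrk5, a neurite-controlling membrane protein, with CR-old values of 2.60, 2.93, 2.33, 2.65 and 2.36% below every AL-old mouse (4.09 to 43.6%), and Plxnb1, a semaphorin receptor, with CR-old values of 0.15 to 4.08% and AL-old values of 2.52 to 66.8%. Glutamate, GABA and neuropeptide receptors (72 sites), voltage-gated channels (99), cadherins (59) and clustered protocadherins (2) had 0 calls on both scales by edgeR. On read counts their unadjusted p was under 0.05 at 10, 10, 8 and 0 sites, and limma called 3, 0, 1 and 0 lower on the adjusted scale and none on read counts. On the adjusted scale edgeR called 4, 1, 6 and 0 of them lower (5.56, 1.01, 10.2 and 0%, against 4.72% of all sites). The BMP, TGF-beta, FGF and hedgehog list (167 sites) gave, besides Inhbb, 1 higher site annotated to a long transcript of Fgfr2, which lies nearer to the start of Htra1.

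Of 87 sites in genes of immune receptors, cytokines and signalling, 2 were lower and 12 higher on read counts at an unadjusted p under 0.05. Limma called 0 lower and 1 higher on the adjusted scale. On both scales edgeR called 0 lower and 4 higher (4.60%), against 0.716 and 0.736% of all sites. All 4 were promoter sites of genes of antigen presentation: both tested sites of Psme1, the alpha subunit of the PA28 proteasome activator, and both of Tapbp, which loads peptides onto MHC class I. At the larger Psme1 site (chromosome 14, 56199699 to 56199704) CR-old mice had 70.9, 14.7, 78.0, 76.7 and 89.0%, and AL-old mice 1.53 to 18.3% apart from AL-old 25 at 85.3%. At Tapbp (chromosome 17, 34055568 to 34055573) the CR-old mice had 62.4, 59.7, 63.7, 66.5 and 74.0% and the AL-old mice 4.82 to 35.8% apart from AL-old 25 at 74.4%. Blood lineage transcription factors had 1 lower (0.952%) and 2 higher (1.90%) of 105 sites. The lower one was in the promoter CGI of Bcl11b, a factor of T cell commitment, with 1.60, 0.64, 0.50, 1.21 and 0.36% in CR-old mice and 1.08 to 47.7% in AL-old mice, and both higher ones were in Zbtb32.

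Sites near marker genes of blood cell types bear on the makeup of the blood. T and NK cell genes had 1 lower of 21 sites (the one in Bcl11b), granulocyte and monocyte genes had 2 higher of 29 (those of Cyba), and pan-leukocyte genes had 1 higher of 25, in Fmnl1, a formin of leukocytes (42.9% in CR-old and 10.2% in AL-old mice). Of all tested sites, 0.716% were lower and 0.736% higher on both scales. B cell genes (16 sites) and erythroid and platelet genes (28) had 0 calls on both scales by edgeR and 0 by limma, with 4 and 0 sites at an unadjusted p under 0.05 on read counts. On the adjusted scale alone edgeR called 2 of the B cell sites lower (12.5%, against 4.72% of all sites). The same fit called 4 of 21 T and NK cell sites lower, the one in Bcl11b among them, and 0 higher. For granulocyte and monocyte genes it called 3 of 29 lower and 2 higher. Their median difference was -1.17 points raw and -2.44 adjusted, against -0.012 and -0.236 over all sites, not matched for methylation level. On read counts 4 were lower and 8 higher at an unadjusted p under 0.05. Limma called 0 lower and 3 higher on the adjusted scale. No marker transcript was measured here, and the part of cell makeup in the diet differences was not tested.

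Other lists had few or no calls on both scales. Regulators of DNA methylation and chromatin (205 sites), ribosomal protein genes (37), histone genes (17), Runx family genes (20) and imprinted genes (47) gave 0 calls shared by both scales by edgeR, with 8, 2, 2, 6 and 2 sites at an unadjusted p under 0.05 on read counts. On the adjusted scale edgeR called 4 lower Runx sites (20%, against 4.72% of all sites) and 1 lower imprinted site (2.13%). It called 0 there in the chromatin, ribosomal protein and histone lists. Limma called 2 lower Runx sites on the adjusted scale and 0 in the other 4 lists. Imprinted genes had a median difference of -1.22 points raw and -6.48 points adjusted, against -0.012 and -0.236 over all sites. This comparison was not matched for methylation level. The adjustment multiplies odds, so it moves middle levels by more points than levels near the ends. All sites of 5 to 50% in young mice had medians of 1.35 points raw and -1.79 adjusted. Tumour suppressor genes often methylated in cancer had 1 higher of 88 sites, in an intron of Trp73, a p53 relative (chromosome 4, 153465630 to 153465635). The 5 CR-old mice had 57.6, 53.8, 68.8, 65.8 and 69.6% there, and the 4 AL-old mice with 100 reads had 2.75 to 36.9%. Of 6 sites in the genes for which liver RNA was also assayed, 2 were higher, both in Tapbp. Those genes were picked on these animals and are no independent evidence of a direction.

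Mean methylation of whole classes of sites differed less clearly. Each mouse's mean was taken over 22 classes by island, gene context and AL-young level, and 0 classes passed an exact permutation test adjusted over the classes on either scale (0 at an unadjusted p under 0.05 raw, 7 adjusted, all lower in CR-old mice). The smallest p was that of all 8936 island sites (-1.58 points adjusted, exact permutation p = 0.0114, adjusted p = 0.0764). Another of the 7 was the class of 8178 island sites under 5% in young mice. Adjusted means there were 0.657, 0.671, 0.635, 0.579 and 0.680% in CR-old mice and 1.42, 2.37, 1.09, 3.32, 2.34, 0.811 and 4.39% in AL-old mice. The groups did not overlap, and the means of 0.645 ± 0.0404% (SD, n = 5) and 2.25 ± 1.28% (SD, n = 7) differed by -1.60 points (exact permutation p = 0.0126, two-sided, adjusted p = 0.0764). In raw methylation the difference was -0.998 points (exact permutation p = 0.0922, adjusted p = 0.326) and the groups overlapped. Sites outside islands with 50 to 90% in young mice had adjusted means of 70.4% in CR-old and 68.2% in AL-old mice (2.15 points, exact permutation p = 0.48), and those over 90% had 92.8 and 91.7% (1.03 points, exact permutation p = 0.593). No difference between the groups was detectable for these classes at this number of mice.

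The CR-old mice lay nearer to young mice than the AL-old mice did. The mean absolute difference from the AL-young mean over 15099 sites was 1.84, 2.89, 2.87, 2.42 and 2.34 points in CR-old mice, against 5.36, 4.70, 4.19, 7.54, 5.89, 1.495 and 8.28 points in AL-old mice, in raw methylation. AL-old 25 was closer to young mice than any CR-old mouse, and the other 6 AL-old mice were farther. The means of 2.47 ± 0.434 (SD, n = 5) and 5.35 ± 2.25 points (SD, n = 7) differed by -2.88 points (exact permutation p = 0.0215, two-sided). In adjusted methylation the difference was -2.64 points (exact permutation p = 0.0328). CR-old mice also differed less among themselves: pairs of CR-old mice were 2.42 points apart on average and pairs of AL-old mice 6.12 points (p = 0.00126 by exact permutation, which is the lowest value 792 splits can reach). On the adjusted scale the averages were 2.34 and 5.84 points (exact permutation p = 0.0126). Within subsets the direction of the distance difference was the same without passing the test: -2.84 points in females (exact permutation p = 0.0952, smallest possible 0.0476), -2.44 points in males (exact permutation p = 0.6, smallest possible 0.1) and -2.55 points in low-correction mice (exact permutation p = 0.333, smallest possible 0.0667), on the adjusted scale.

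**Figure D5:**
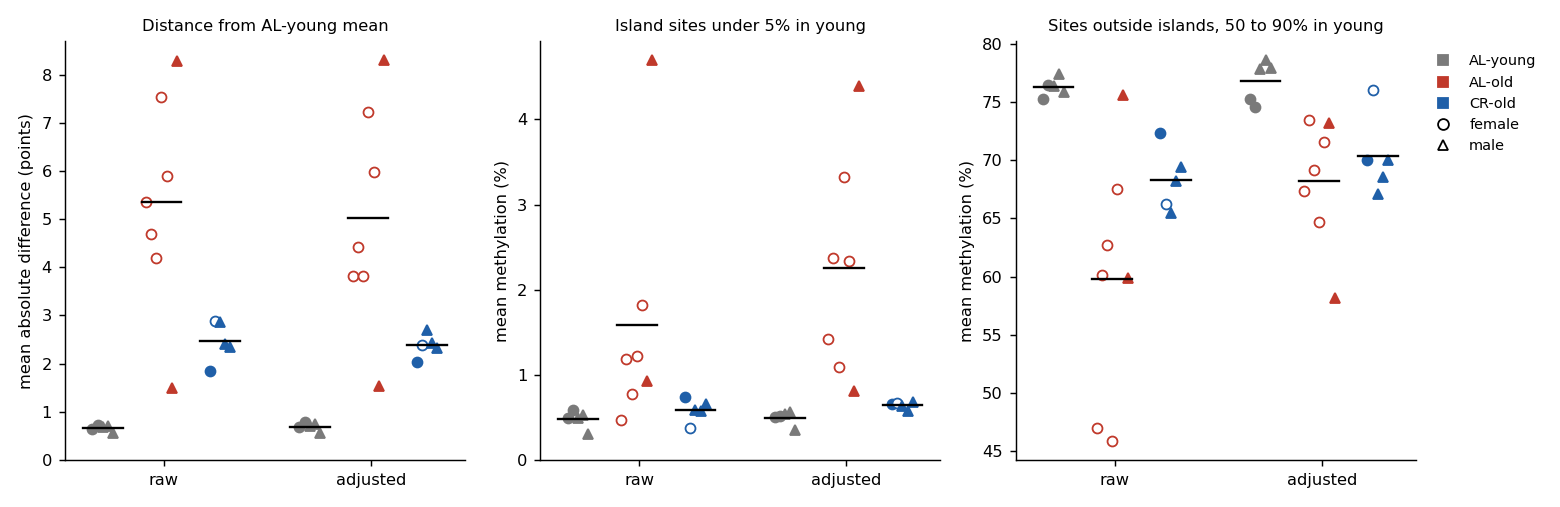
Left, mean absolute difference of each mouse from the AL-young mean (points) in raw and adjusted methylation; middle and right, mean methylation (percent) over island sites under 5% and sites outside islands of 50 to 90% in young mice. Symbols are single mice (circles female, triangles male, open symbols a correction factor of at least 1.3), bars are group means and the y axis of the right panel does not start at 0; in the left panel 1 AL-old mouse, AL-old 25, lies below all CR-old mice and the other 6 above.

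Sex was examined by testing the diet difference of males against that of females at the 24 ranked sites and the 22 classes, on both scales. Of 92 such tests by exact permutation of diets within each sex, 0 had an adjusted p under 0.05 and 1 an unadjusted one, the smallest adjusted p being 0.98. With 2 CR-old females and 2 AL-old males, the tests have little room to show a difference. At the sites called over all 12 mice the raw CR-old minus AL-old difference had the same sign in females at 112 of 112 lower and 115 of 115 higher sites, with medians of -12.6 and 36.4 points. In males it did so at 109 of 109 and 107 of 111 sites with a value (-18.8 and 29.4 points), and in low-correction mice at 108 of 109 and 108 of 111 (-18.6 and 27.02 points). The same mice chose the sites, so these counts describe how the differences were shared out and are not a repeat of the test. In females or males alone edgeR called 0 sites on either scale (532 and 1450 at an unadjusted p under 0.05 on read counts), alternatives that were added after the data had been seen.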

How the data were processed

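Per the labels, genomic DNA of whole blood was digested with SmaI and then XmaI after methylation standards had been spiked in. The authors mapped reads to mm9 and deposited, per mouse and CCCGGG site, counts of methylated and unmethylated reads, the raw methylation percent and an adjusted percent. The submitters' processing notes name Bowtie2, SAMtools, mm10 and mm9. All 173449 deposited positions fell on a CCCGGG of NCBIM37, which was used here. From the values, the deposited raw percent is 100 times methylated reads plus 0.5 over all reads plus 1, and the adjusted percent multiplies the odds by 1 factor per mouse, which was derived from both percent columns. No per-sample column was left unused by rule (0 columns of other samples).

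Sites were annotated to GENCODE genes and to islands of at least 200 bp, 50% GC and an observed to expected ratio of 0.6. Promoters ran from 1000 bp before to 500 bp after a start, and shores to 2000 bp from an island. Read counts of the 12 old mice were fitted with edgeR 4.0.16 (R 4.3.3; quasi-likelihood F test, a coefficient per mouse, 1 common dispersion, Benjamini-Hochberg over 15632 sites), once as deposited and once with the log correction factor as an offset. Limma 3.58.1, covariates, other coverage minimums (20 and 500 reads) and leaving out mice were alternatives. Class means and distances were compared by exact two-sided permutation of 792 splits (Python 3.11.15, numpy 2.4.6). The edgeR and permutation steps were tested on simulated data. The mice have individual numbers and are separate animals per the labels.

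Named sites were the 10 largest raw differences lower in CR-old in islands or promoters, the 6 largest lower elsewhere and the 8 largest higher, among sites called on both scales with at least 100 reads in all 12 mice, 1 per gene or 10 kb; the 5 genes with the most called sites (at least 3); and up to 3 called genes per list. The comparison, the lists and these rules were chosen with earlier results of these data known. Sequences were read from NCBIM37. Sex chromosomes were left out of the tests.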

Additional observations from a re-analysis of the deposited data

Results flagged for a closer look

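Among 60 groups of mice tested for a single value far from the rest (at named sites, class means, distances and correction factors), 11 were found. The named sites were chosen for large differences in these mice, and the groups share mice. No chance rate can therefore be set beside this count. AL-old 25 was the distant mouse in 8 of them, with raw methylation of 60.1% at Srp68, below the other AL-old mice, and, above them, 98.2% at Sik1, 87.7% at the intergenic site of chromosome 15 near Tnfrsf13c, 78.8% at Cyba, 92.9% at Tmem222, 79.0% at Galm, 77.1% at Zbtb32 and 87.0% at Dnahc1. CR-old 06 was the distant mouse in the other 3, with 36.5% at the site near Tnfrsf13c, 22.8% at Zbtb32 and a correction factor of 1.80.

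Chromosome Y sites were outside the comparison. The CR-old males had 1769 (CR-old 19), 768.4 (CR-old 20) and 467.1 (CR-old 22) chromosome Y reads per 1000000 reads, above the 96.1 and 187 of the AL-old males and the 123 to 168 of the AL-young males. Without the site holding the most reads the CR-old males still had 308 to 1345 and the AL-old males 58.7 and 114.5.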

How the results depend on the processing

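Counts of called sites depended on the processing, given here as lower and then higher in CR-old mice. With all 17 mice in the fit edgeR called 276 and 253 sites on read counts, 1105 and 191 on the adjusted scale, and 276 and 188 on both. With the correction covariate it called 0 and 0, 23 and 2, and 0 and 0 (1740 sites raw and 1917 adjusted at an unadjusted p under 0.05). With sex as a covariate the counts were 2 and 7, 257 and 31, and 2 and 7. Low-correction mice, females only and males only gave 0 and 0 on every scale (females 532 and 730, males 1450 and 1103 sites at an unadjusted p under 0.05; the split by sex was added after the data had been seen). At 500 reads the counts were 25 and 50, 171 and 46, and 25 and 45, over 4367 sites. Without AL-old 13 and AL-old 27 together they were 16 and 65, 436 and 64, and 16 and 62. Limma called 0 and 0, 335 and 48, and 0 and 0. A minimum difference of 10 points left 73 lower sites on read counts, 441 on the adjusted scale and 73 on both. Site-wise dispersions equalled the common one and changed no count. Leaving out 1 mouse at a time gave 4 to 314 lower and 34 to 377 higher on read counts, 261 to 1152 and 46 to 224 on the adjusted scale, and 4 to 314 and 34 to 222 on both.

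The 24 ranked sites kept their direction in all settings in which they could be tested. With the correction covariate 0 of the 24 were called on read counts by edgeR and 1 on the adjusted scale (adjusted p from 0.0486 to 0.241); with the sex covariate 4 and 24 were called, and with limma 0 and 22. Class means are on the adjusted scale unless stated. For island sites under 5% in young mice the difference was -0.998 points raw (exact permutation p = 0.0922). Without single mice it ran from -1.84 to -1.25 on the adjusted scale. It was -1.96 in low-correction mice (exact permutation p = 0.0667, smallest possible 0.0667) and -1.97 in males (exact permutation p = 0.1, smallest possible 0.1), where 0.05 could not be passed. In females it was -1.44 (exact permutation p = 0.143, smallest possible 0.0476). All sites of 5 to 50% in young mice turned from -3.08 points to 1.27 points raw. Sites outside islands of 50 to 90% turned to -0.58 and those over 90% to -0.634 points without AL-old 13 and 27 together, and without single mice they ran from 0.469 to 3.02 and from -0.0388 (without AL-old 27) to 1.66. The distance from young mice differed by -3.22 to -2.09 points and the spread by -4.12 to -2.78 without single mice. In low-correction mice, females and males the distance differed by -2.55, -2.84 and -2.44 points, and the spread by -6.32 (exact permutation p = 0.133), -2.12 (exact permutation p = 0.286) and -6.40 points (exact permutation p = 0.1), none past 0.05 in these small subsets. The smallest possible p was 0.0667, 0.0476 and 0.1, so low-correction mice and males could not pass 0.05. With 2 AL-old mice in each of these subsets, the AL-old spread there rests on a single pair. The cause of the changes between settings was not tested.

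No paired analysis was possible because each mouse carries its own number and the groups share none. With 100 reads, levels that differ by a few points in 1 mouse cannot be separated, and low levels in islands rest on few methylated reads.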

Other observations

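The spiked standards give a second reading of the correction. The standard Kan_1 had a raw methylation of 11.6 ± 5.4% (SD, n = 6) in high-correction and 34.3 ± 2.9% (SD, n = 6) in low-correction old mice. After adjustment Kan_1 had 20.55 and 33.4%. Another standard, Gfp_1, was alike in raw methylation (41.7 and 41.3%) and became 60.7 and 40.4% after adjustment, so that 1 factor per mouse did not bring both standards together. Some other standards did come together. Luc_1 went from 13.9 and 27.3% to 24.5 and 26.55%, and Sla374_2 from 28.3 and 47.5% to 45.3 and 46.6%.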
